A study of Mus musculus with 19 samples.

Results

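Sorted CD4 T cells that carried a red reporter of Foxp3 (RFP+) were compared with cells that lacked it (RFP-), over both states of a green reporter of IL-2 (GFP). All 19 arrays of the series entered the comparison. The 9 RFP+ arrays were 5 of GFP-RFP+ cells and 4 of GFP+RFP+ cells, and the 10 RFP- arrays were 5 of GFP-RFP- cells and 5 of GFP+RFP- cells, as their titles give them. The GFP state was kept as a covariate, so that each difference is RFP+ minus RFP- at equal IL-2 reporter status.

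Every sample came from C57Bl/6 mice, adult and female, with the genotype Tg IL-2-GFP x FOXP3mRFP, and the tissue was spleen and lymph nodes. No treatment of the cells is named. The sources used here do not give how either reporter was built, or the number of mice behind a sample. Replicates are not stated to be separate animals, and the p-values therefore cover only the variation among these arrays, part of which may be technical. The messenger RNA was copied into cDNA and amplified by a global PCR before labelling with Cy3. The labels conflict on the RFP+ samples: their source name and subtype call them regulatory, whereas a cell type tag calls all 19 samples conventional. The classes here are called by reporter colour alone.

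Foxp3 is the defining transcription factor of regulatory T cells, the CD4 T cells that hold immune responses in check. Working with partner factors, it keeps genes of the conventional T cell programme low, Il2 among them, and keeps others high, such as the IL-2 receptor chain Il2ra and the inhibitory receptor Ctla4. IL-2 is the growth factor that conventional T cells secrete and on which regulatory T cells depend.

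Each gene was read by the 60-base probe with the highest mean signal, and the results turn on few probes. Those for Foxp3 itself, for the gene with the smallest p (Timm9), for a gene with a very large difference and classes that did not overlap (Tmem50a), and for the gene with the smallest p among those with a usual symbol that were higher on RFP+ arrays (Sumf1) are shown by their first 30 bases, 5′ to 3′, as the array files give them. In mm9, the Foxp3 probe lies at chrX:7172301-7172360 on the plus strand. The others lie on the minus strand, Timm9 at chr12:72226471-72226530, Tmem50a at chr4:134454322-134454381 and Sumf1 at chr6:108057073-108057132. Whether they lie in coding sequence or in a UTR was not determined here.
Foxp3: attatgtgttggagtgtgcctgaacagctc
Timm9: gggaacctacaataaacttacagaaacctg
Tmem50a: ttcaagtttggccgtacggaggacttgtgg
Sumf1: cattcagggtgtgtgatatattacaccaga

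The RFP+ arrays carried less signal than the RFP- arrays before any gene was considered. Probes well above background made up 30.8% ± 5.83 (SD, n = 9) of all probes on RFP+ arrays and 38.7% ± 3.96 (SD, n = 10) on RFP- arrays. The difference was -8.01 percentage points (exact permutation test within GFP classes, two-sided, 31752 splits, p = 0.00394). Among the 6612 probes detected on every array, the 75th percentile of log2 intensity was 12.5 ± 0.505 (SD, n = 9) on RFP+ arrays and 13.7 ± 0.334 (SD, n = 10) on RFP- arrays. That difference was -1.22 (the same exact test, p = 0.000126, adjusted over both measures 0.000252). Within the 3 slides, the brightness difference was -1.30, -1.55 and -0.86, and the detection difference was -8.50, -1.81 and -14.0 points.

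Some arrays stood apart. The 3 arrays with under 30% of probes detected were all RFP+ (GFP-RFP+ replicates 1 and 4 and GFP+RFP+ replicate 1, at 22.0%, 24.6% and 26.1%). GFP-RFP+ replicate 3 lay at the other end, with 39.4% detected and a 75th percentile of 13.5, inside the RFP- range. The labels and files give neither the number of cells nor the amount of RNA before amplification, and fewer cells or less RNA per cell cannot be told apart from lower levels of single genes.

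**Figure D1:**
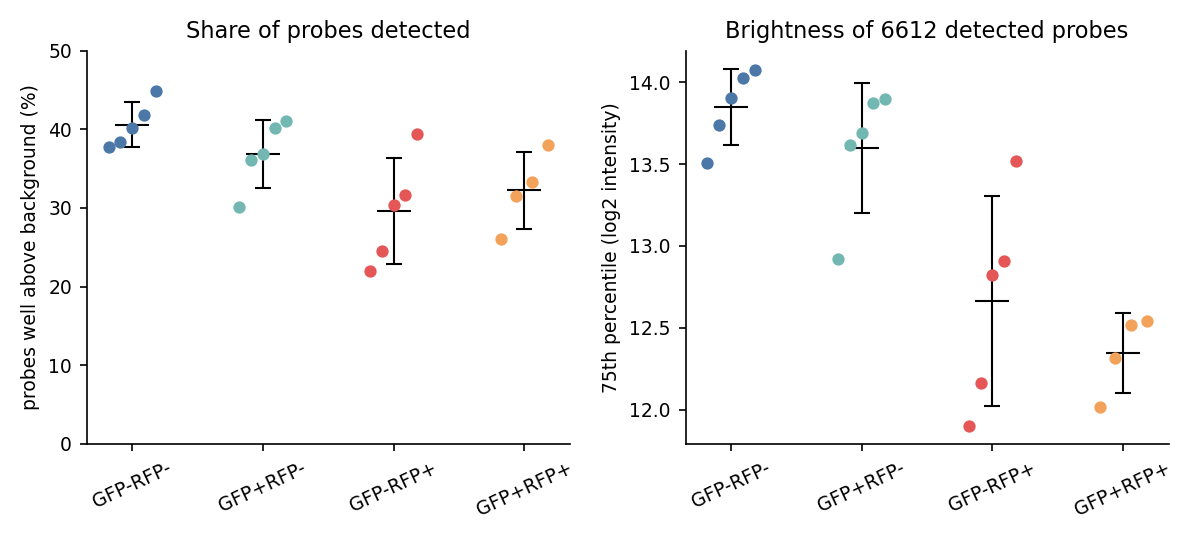
Left, percent of probes well above background on each array; right, the 75th percentile of log2 intensity over the 6612 probes detected on all arrays (this axis does not start at 0). Points are arrays sorted by value within each reporter group, bars are the mean ± SD; the RFP+ groups lie lower on both measures, and GFP-RFP+ replicate 3 reaches 39.4% and 13.5.

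Levels below are log2 signal minus the array's 75th percentile, so 0 is a bright probe and the most negative values are at background. Of 20617 genes tested, 2938 (14.3%) were called at an adjusted p under 0.05, limma with Benjamini-Hochberg adjustment. Of these, 1924 were higher on RFP+ arrays (9.33% of those tested) and 1014 were lower (4.92%), while the median difference over all genes was -0.10. Without adjustment, 6435 genes had p under 0.05.

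How many genes were called higher depended on the scaling of the arrays. With no scaling, 48 genes were called higher and 5846 lower (28.6% called), and the median of all genes moved to -1.32. Scaled by the percentile over all probes, 5766 were called higher and 785 lower, around a median of 0.86. Of the 1924 genes called higher, 576 lay below 0 without scaling, since their differences were smaller than the 1.22 by which the RFP+ arrays were dimmer. All 1014 genes called lower were also called lower without scaling. Leaving out the scaling moved every difference down by 1.22, which favours lower calls and works against higher ones. That all 1014 stayed therefore gives no separate support for them. The part that brightness and detection played in the calls was not tested beyond these values.

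A total of 742 genes were called in the same direction under each of 5 scalings, namely the percentile over detected probes, the percentile over all probes, the median, quantile normalization and none. Of these, 694 were lower (3.37% of those tested) and 48 higher (0.233%). The 48 are all the genes called higher without scaling, so the fit without scaling alone set their number. The 694 lower genes had a median difference of -5.06, and 77.7% carried a usual gene symbol rather than a predicted or clone name. The 48 higher genes had a median of 2.24, and 41.7% carried one, against 56.9% of all genes tested. Without GFP-RFP+ replicate 3 the count was 920, of which 684 were among the 742. Without the 3 arrays with under 30% of probes detected it was 519, 371 of them shared.

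Presence or absence of signal was also compared. By an exact permutation test on detection flags, 0 genes passed adjustment (0% of those tested) and 2173 had an unadjusted p under 0.05. By count alone, 296 of the 20617 genes were well above background on at least 9 of the 10 RFP- arrays and at most 2 of the 9 RFP+ arrays. In the other direction, 4 of the 20617 were detected on at least 8 RFP+ arrays and at most 2 RFP- arrays. RFP+ arrays detected fewer probes in all (-8.01 percentage points), and how far these counts follow from that was not tested. Classes that did not overlap at all were found for 55 genes (0.267%), 43 of them higher and 12 lower on RFP+ arrays.

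Foxp3, the gene of the red reporter, was well above background on all 19 arrays, the RFP- arrays included. On RFP+ arrays its level ran from -8.64 through a median of -5.96 to 0.25, and on RFP- arrays from -8.50 through -7.84 to -6.89. The highest value was that of GFP-RFP+ replicate 3, with the next RFP+ array at -5.49, and the lowest of all 19 was that of GFP-RFP+ replicate 4, so that the classes overlapped. The difference was 2.06 ± 0.79 (SE) and was not called (limma, adjusted p = 0.0865). A permutation of this gene alone gave an exact two-sided p of 0.00277. It was called without GFP-RFP+ replicate 3 (1.33, limma adjusted p = 0.0365) and without GFP-RFP+ replicate 4 (2.44, limma adjusted p = 0.0308). The difference lay above 0 under each of 24 other processing choices, from 0.34 to 3.55, and was called under 7 of them. In GFP- cells it was 2.55 and in GFP+ cells 1.51.

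Il2, the gene of the green reporter, was detected on 1 of 9 RFP+ arrays and 4 of 10 RFP- arrays. Its level ran from -11.4 through -9.92 to -5.93 on RFP+ arrays and from -11.8 through -10.1 to -1.51 on RFP- arrays, with medians near background in both classes. The difference of -1.82 ± 1.39 (SE) was not called (limma, adjusted p = 0.389).

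The regulatory T cell signature did not stand out as a list in the main fit, and its position moved with the processing. Of its 26 genes, 19 were among those tested, 1 was called higher and 0 lower, and 11 lay above 0. Their median difference was 0.24 against -0.10 for all genes, and it was -0.98 against -1.32 without scaling. With quantile normalization it was 0.65 against 0.20, with 2 called higher. Scaled by the percentile over all probes it was 1.20 against 0.86, with 4 called higher. With the percent of probes detected as covariate it was 1.51 against 0.29, with 16 of the 19 above 0 and 0 called. The gene called in the main fit was Tnfrsf9, which encodes the co-stimulatory receptor 4-1BB. It ran from 3.00 through 3.77 to 4.25 on RFP+ arrays and from 2.32 through 2.68 to 3.30 on RFP- arrays. Only the lowest RFP+ arrays reached into the RFP- range, and the difference was 0.94 ± 0.23 (limma, adjusted p = 0.0154), but it lay below 0 without scaling (-0.28). It was not called either with quantile normalization (0.18, limma adjusted p = 0.577) or in the authors' series table (0.17, limma adjusted p = 0.594). Among members not called, Gpr83, an orphan receptor used as a marker of these cells, differed by 6.83 in GFP- cells and by -1.28 in GFP+ cells (3.01 over both). Ikzf2 (Helios) differed by 2.03 and Il2ra by 1.89. Ctla4 lay at -2.33 and was detected on 6 RFP+ and all 10 RFP- arrays.

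**Figure D2:**
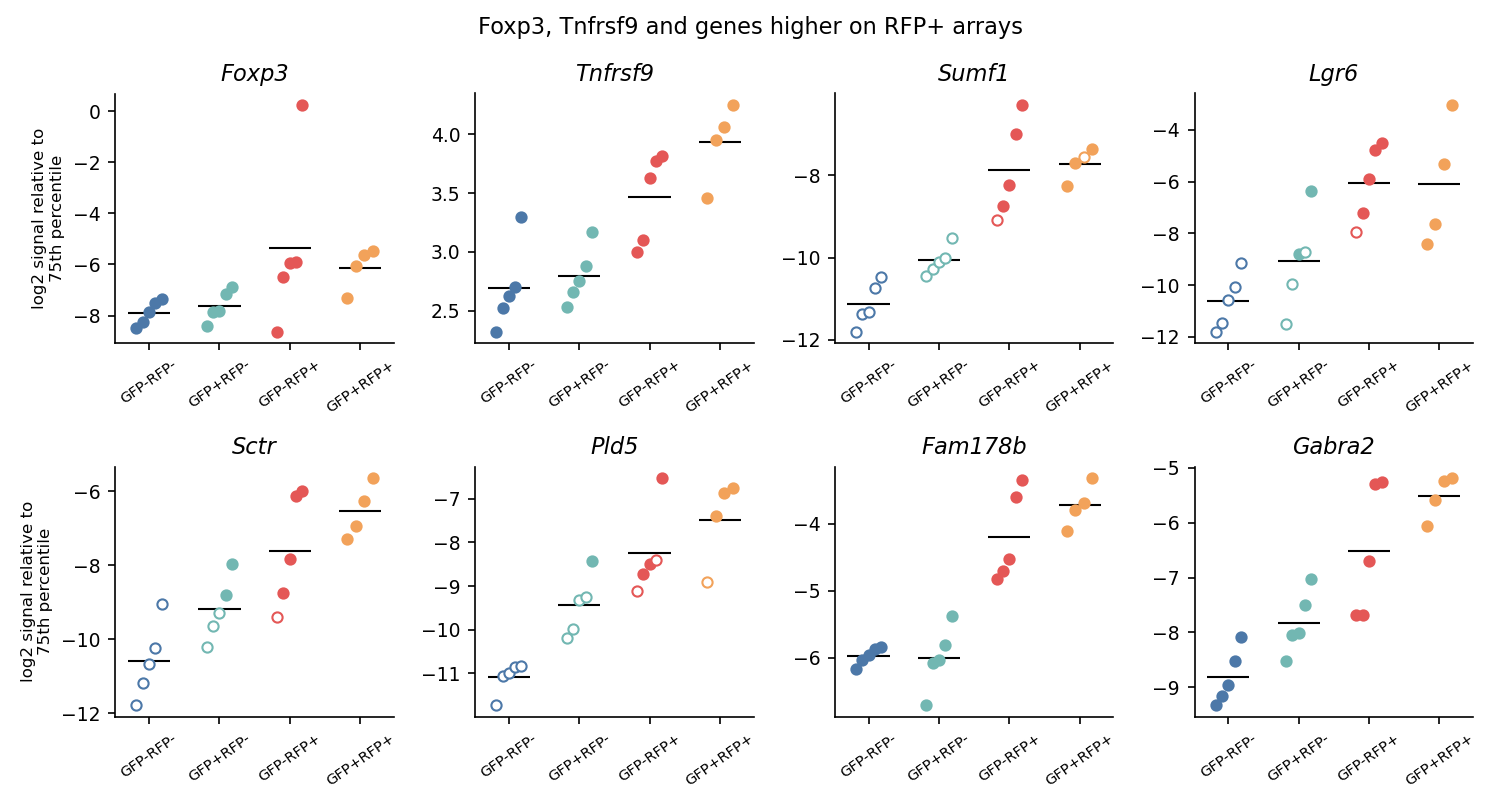
Log2 signal relative to the array's 75th percentile for Foxp3, Tnfrsf9 and 6 genes called higher under every scaling, by reporter group; points are arrays sorted by value, filled where the probe was well above background, and lines are group means. Foxp3 has the value 0.25 on GFP-RFP+ replicate 3 and overlaps elsewhere, whereas Sumf1 and Fam178b show no overlap between RFP+ and RFP- arrays.

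Genes that regulatory T cells keep low lay below 0. Of 15 such genes, 13 were tested, all 13 had a difference below 0 (10893 of all 20617 genes did), and 3 were called lower (4.92% of all genes). With the percent of probes detected as covariate, 0 of the 13 were called. Their median was -2.39 and stayed negative under all 5 scalings, from -3.61 to -1.44, against -1.32 to 0.86 for all genes under the same scalings. The position is not particular to this list. Medians of the respiratory chain and the splicing and RNA exosome lists were -2.15 (-3.36 to -1.19) and -2.10 (-3.32 to -1.14). In GFP- cells alone the median of the 13 genes was -3.15, and in GFP+ cells alone -0.97, with 11 of the 13 below 0 and 0 called. Igfbp4, an insulin-like growth factor binding protein of naive T cells, ran from -9.80 through -7.96 to -7.16 on RFP+ arrays and from -9.60 through -3.18 to 0.10 on RFP- arrays. The RFP- arrays were spread widely, some as low as any RFP+ array, and the difference was -4.46 ± 1.06 (limma, adjusted p = 0.0133). Slamf6, a co-receptor of the SLAM family, differed by -5.30 ± 1.54 (SE) and Themis, a regulator of T cell receptor signalling, by -3.23 ± 1.02 (SE), both lower on RFP+ arrays, with limma adjusted p of 0.0301 and 0.0434. Of the 19 refits that left out 1 array each, Themis was called in 3 and Slamf6 in 16. Lef1 and Tcf7, transcription factors of naive T cells, lay at -2.39 and -1.30 and were not called.

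The naive and recirculating list shares members with the preceding one. Of its 15 genes, all tested, 2 were called lower, Igfbp4 and the transcription factor Foxo1 (-5.17 ± 1.51, limma adjusted p = 0.0307, called in 12 of the 19 refits). The median was -2.13, and it was -2.20 in GFP- cells alone and -0.83 in GFP+ cells alone. The homing receptor Ccr7 differed by -2.22, and S1pr1, which guides exit from lymph nodes, by -3.26, neither of them called. In the effector-memory list, 4 of 16 were called lower (4.92% of all genes), around a median of -1.06. These were the adhesion molecules Itgb1 and Cd44 (-6.62 and -1.99), the chemokine Ccl5 (-3.50) and Anxa1 (-3.43). Of the 19 refits that left out 1 array each, Ccl5 was called in 4, Anxa1 in 8 and Cd44 in 11. Other probes of Cd44 gave 1.10 and -0.11.

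The type I interferon list had the lowest median of the 20 lists. Of its 12 tested genes, 4 were called lower and 0 higher, where 4.92% of all genes were called lower. The median was -3.35, from -4.57 to -2.39 over the 5 scalings. With the percent of probes detected as covariate, 0 of the 12 were called and the median was -1.75. Ifit1, an RNA-binding antiviral protein, ran from -11.4 through -9.38 to -2.71 on RFP+ arrays and from -3.74 through -2.62 to -0.97 on RFP- arrays. It was detected on 2 of 9 RFP+ and 10 of 10 RFP- arrays and fell by 6.24 ± 0.95 (SE; limma, adjusted p = 0.00135). Ifit3 was detected on no RFP+ array and on 7 RFP- arrays, which makes its array signal at least 13.5-fold lower. This bound sets the mean of the detected class against the lowest signal that counts as detected on each array of the other. Ifit2 and the interferon-induced apoptosis factor Xaf1 were lower, at -4.87 ± 1.24 and -4.46 ± 1.12 (SE; limma, adjusted p = 0.0173 and 0.0166). The call for Ifit3 (adjusted p = 0.0340, limma) was kept in 7 of the 19 refits that left out 1 array each and reached 0.0616 in the others. Irf7, Bst2, Isg15 and Oasl2 had values of -5.08, -3.33, -3.37 and -3.13 and were not called, while Oas1a, Rsad2 and Ifi44 lay slightly above 0.

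Interferon signals reach such genes through the ISRE element, which the motif GAAANNGAAA describes in its core. It was searched on both strands in the 250 bases before each start in the RefSeq promoter table (GRCm38.p6). Among the list's tested genes, 11 had a promoter there and 6 held the motif, against 3.46% of the 27025 genes in the table. It was present in 2 of the 4 genes called lower (Ifit1 and Ifit3) and in 4 of the 7 that were not called, so its presence did not separate them. A match is a description of letters, not a bound site. Ifit2, also called lower, had no match in either of its promoters. Only the windows of Ifit1 and Ifit3, the called genes with the motif, are shown, 5′ to 3′ on the plus strand. The motif, here on the opposite strand, is in capitals. Ifit1 is at chr19:34640735-34640854 and Ifit3 at chr19:34583323-34583442.
Ifit1: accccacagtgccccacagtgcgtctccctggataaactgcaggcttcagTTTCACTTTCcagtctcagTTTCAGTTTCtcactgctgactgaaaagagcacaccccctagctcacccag
Ifit3: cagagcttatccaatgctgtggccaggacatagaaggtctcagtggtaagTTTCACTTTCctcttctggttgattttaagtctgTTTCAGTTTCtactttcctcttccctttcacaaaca

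Some subunits of housekeeping complexes were lower too. In the respiratory chain list, 5 of 26 tested genes were called lower (4.92% of all genes) and 0 higher, with a median of -2.15. In GFP+ cells alone the median was -0.64, with 10 of the 26 above 0. Ndufs1, the large iron-sulfur subunit of complex I, ran from -10.7 through -9.26 to -0.15 on RFP+ arrays and from -0.58 through 0.35 to 1.09 on RFP- arrays. All but 1 RFP+ array lay far below the RFP- range, the exception being GFP-RFP+ replicate 3, and the difference was -8.42 ± 1.02 (limma, adjusted p = 0.000325). Ndufs8, also of complex I, the succinate dehydrogenase subunits Sdha and Sdhb, and Cox7c of cytochrome oxidase were also lower, at -6.70, -5.05, -5.06 and -5.30. A second Sdhb probe gave 0.46.

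In the splicing and RNA exosome list, 5 of 27 were called lower and 2 higher (median -2.10). Exosc8, a ring subunit of the exosome that trims and degrades RNA, had the most negative difference of all called genes with a usual symbol. It ran from -11.3 through -10.3 to -0.53 on RFP+ arrays and from -1.42 through -0.09 to 1.05 on RFP- arrays. It was detected on all 10 RFP- arrays but on GFP+RFP+ replicate 3 alone of the RFP+ arrays, and the difference was -9.14 ± 1.03 (limma, adjusted p = 0.000163). The splicing factors Sf3b6, Srsf2, Snrpb and Prpf8 were lower, at -7.66, -5.82, -4.74 and -3.47. Exosc2 and Exosc9, other subunits of the exosome, were called higher by 0.66 and 1.09, but lay at -0.56 and -0.13 without scaling.

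Among the regulators of T cell function, few genes passed. Nfatc2, the calcium-regulated factor that partners Foxp3, was called lower (-5.73 ± 1.32, limma adjusted p = 0.0114), as the 1 of 15 partner factors tested, although a second probe gave 0.47. Stat5b, which carries the IL-2 signal to the nucleus, was the 1 called gene of 15 in the IL-2 receptor list (-3.80 ± 1.03, limma adjusted p = 0.0223), and its second probe gave -1.03. Of 10 suppressive molecules, Tgfb1 alone was called, at -4.30 ± 1.36 (limma, adjusted p = 0.0424), and it was called in 5 of the 19 refits without 1 array each. Junb was called lower in the early T cell receptor list (1 of 13, median -1.82, but 0.22 with the percent of probes detected as covariate), Tnfrsf14 (HVEM) in the TNF receptor family (1 lower and 1 higher of 11), and Zw10 in the cell cycle list (1 of 14). Of the 6 cytokine genes tested, 0 were called by limma and 1 had an unadjusted p under 0.05, Il9 (1.56, adjusted p = 0.0860).

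T cell identity genes were divided. Of 14, 3 were called lower, among them the receptor zeta chain Cd247 (-6.44) and the adaptor Trat1 (-5.73). A second Cd247 probe gave -0.68, detected on 3 RFP+ and 3 RFP- arrays. Cd3d, Cd3g, Lck, Zap70, Lat, Cd5 and Thy1 were detected on all 19 arrays and differed by -0.22 to 0.41 with scaling, and all lay below 0 without it. Cd4, for which the cells are named, was detected on all 19 arrays and differed by -1.76 without being called. The log2 of their list's summed signal ran from 3.59 to 4.67 on RFP+ arrays and from 3.74 to 4.45 on RFP- arrays.

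Markers of other cells were measured on both classes of array. For B cell markers, 1 of 9 was called lower (Cd79b, -6.20 ± 1.07, limma adjusted p = 0.00279), and the summed signal ran from -2.47 to 0.54 on RFP+ arrays and from -1.49 to 1.24 on RFP- arrays. For myeloid and dendritic markers, 1 of 11 was called higher (Itgam, 1.15). It lay at -0.07 without scaling, and a second probe of it gave -1.16. Their summed signal ran from 3.64 through a median of 4.52 to 5.15 on RFP+ arrays and from 3.41 through 3.71 to 4.09 on RFP- arrays. On these scaled values the RFP+ median lay above every RFP- array. The summed Treg signature showed the same order, with an RFP+ median of 4.36 and an RFP- maximum of 3.66. Each sum adds linear signals and rests largely on 1 bright probe. On RFP+ arrays, Itgam had a median of 4.07 and Tnfrsf9 of 3.77, and without scaling their differences were -0.07 and -0.28. The order is therefore not a trait of either list as a whole. Without scaling, all 11 myeloid markers lay below 0 (median -1.20 against -1.32 for all genes), and 3 were called lower. Of the 8 class II genes, 9 NK and CD8 markers and 5 erythroid and platelet markers, 0 were called by limma, and 1, 2 and 0 had an unadjusted p under 0.05. The brighter Eomes probe, of NK and CD8 cells, was detected on 0 RFP+ and 6 RFP- arrays, and a second probe on 1 and 3. The part of other cell types in the differences was not tested.

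**Figure D3:**
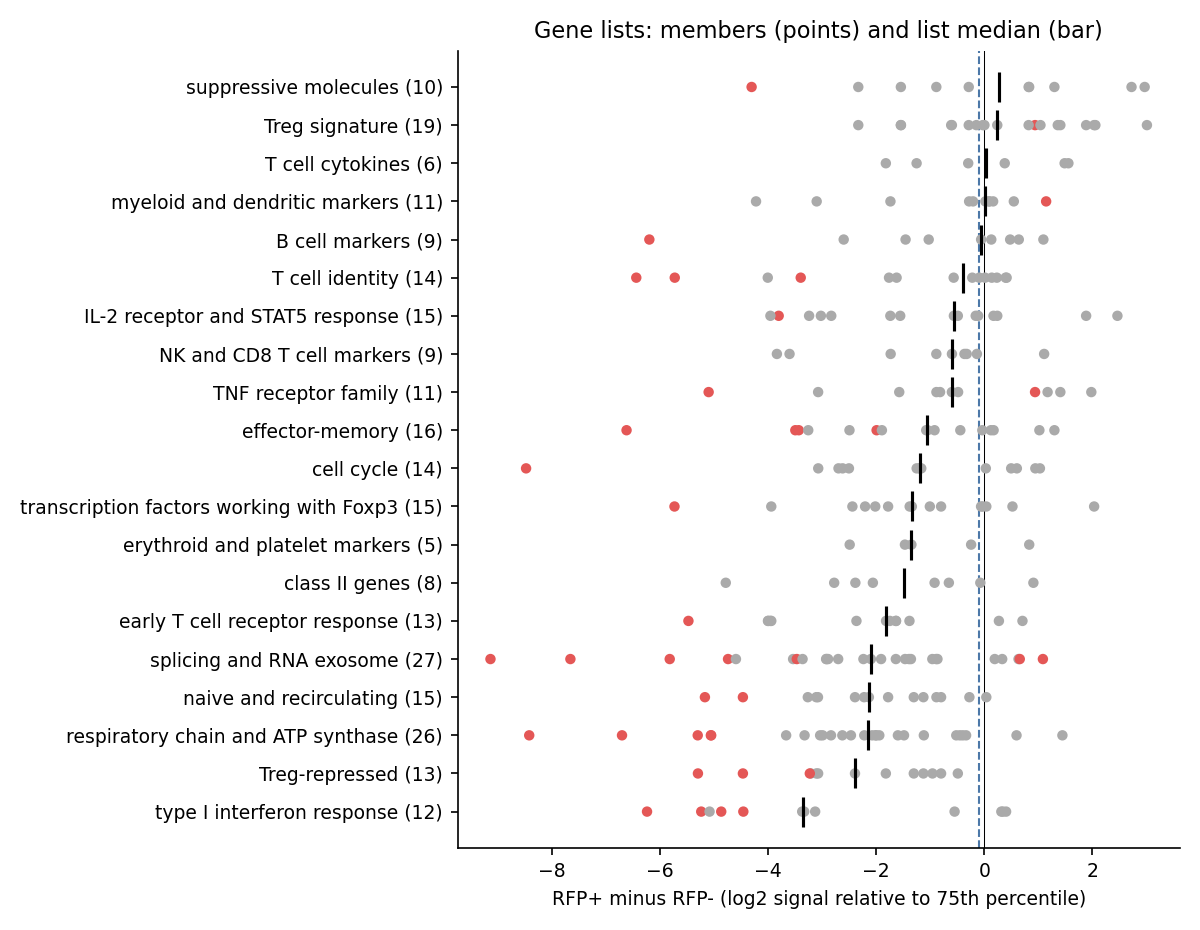
RFP+ minus RFP- difference in log2 signal for each tested member of the 20 gene lists; red points are called genes, grey points are not, black bars are list medians and the dashed line is the median of all genes, -0.10. Numbers in brackets are genes tested; the interferon list has the lowest median, -3.35, and suppressive molecules the highest, 0.27.

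The genes with the largest negative differences were bright on RFP- arrays and at background on most RFP+ arrays. Tmem50a, a small membrane protein, ran from -11.4 through -9.99 to -3.33 on RFP+ arrays and from -0.84 through 0.03 to 0.76 on RFP- arrays. The classes did not overlap, and the difference was -8.85 ± 0.87 (limma, adjusted p = 7.15e-05). Pecam1 (CD31), an adhesion molecule with inhibitory motifs, and Tspan14, a tetraspanin that accompanies the protease ADAM10, were each detected on 1 RFP+ array and all 10 RFP- arrays. They were lower, at -8.30 ± 0.92 and -8.06 ± 0.84 (SE; limma, adjusted p = 0.000155 and 8.77e-05). Hmox2, the constitutive haem oxygenase, fell by 8.13 ± 1.39 (SE). Zw10, of the kinetochore checkpoint and Golgi traffic, and Ap4m1, a subunit of the AP-4 coat adaptor, were detected on no RFP+ array and 9 RFP- arrays, at least 120-fold and 126-fold lower.

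Timm9, which chaperones carrier proteins across the mitochondrial intermembrane space, had the smallest p of all genes. It was named after its values were seen, as were Jmjd6 and Sec62. Its level ran from -11.3 through -10.9 to -9.26 on RFP+ arrays and from -5.80 through -4.31 to -2.60 on RFP- arrays. Every RFP+ array was at background and every RFP- array was above it, in GFP- and GFP+ cells alike (-6.10 and -6.60). The difference was -6.33 ± 0.40 (limma, adjusted p = 1.04e-07), at least 27.8-fold in array signal. A second Timm9 probe gave 1.53, detected on 4 RFP+ and 3 RFP- arrays, and with the mean of both probes the difference was -2.40 and not called (limma, adjusted p = 0.0877). Jmjd6, a hydroxylase that acts on splicing factors, and Sec62, of the protein channel of the endoplasmic reticulum, also had classes that did not overlap (-7.04 ± 0.71 and -4.79 ± 0.85).

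**Figure D4:**
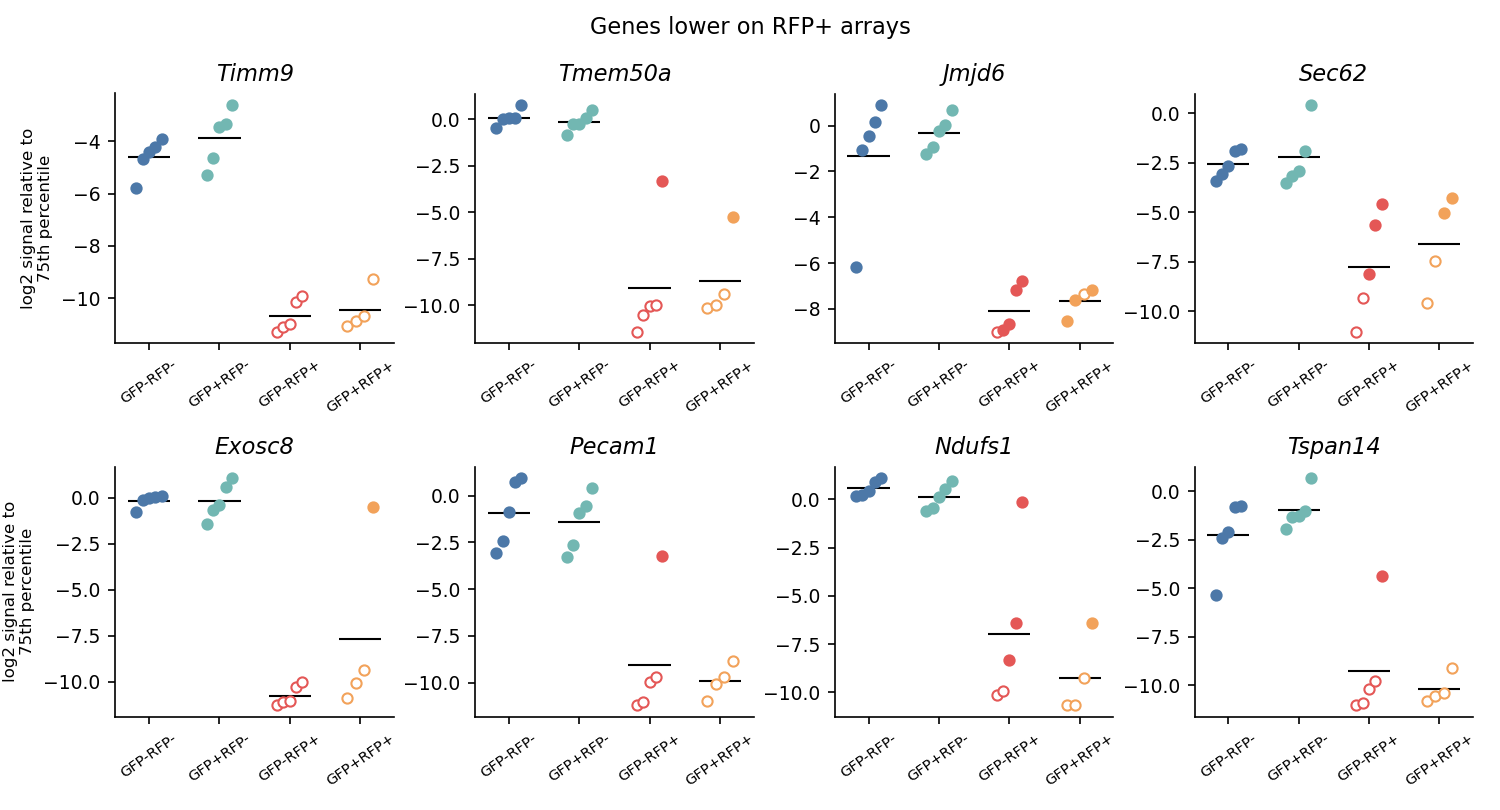
Log2 signal relative to the array's 75th percentile for 8 genes called lower under every scaling, by reporter group; points are arrays sorted by value, filled where the probe was well above background and open where not, and lines are group means. RFP- arrays are filled throughout, RFP+ arrays are mostly open except for Jmjd6 and Sec62, and in Ndufs1, Pecam1, Tspan14 and Exosc8 a lone RFP+ array lies near the RFP- arrays.

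Genes detected on every array showed smaller negative differences, with every value above background. This follows in part from the selection, which leaves out any gene at background on an RFP+ array. Of the 5680 genes detected on every array, 78 were called lower and 1063 higher (20.1% in all), around a median of 0.34. Psd4, an exchange factor for the GTPase ARF6, ran from -7.05 through -4.76 to 0.34 on RFP+ arrays and from -1.42 through -0.12 to 1.86 on RFP- arrays. GFP-RFP+ replicates 3 and 5 lay inside the RFP- range, and the difference was -4.16 ± 0.80 (limma, adjusted p = 0.00543). Nlrc3 and Lax1, which restrain lymphocyte activation, were lower, at -4.13 ± 0.83 and -4.06 ± 0.86 (SE; limma, adjusted p = 0.00650 and 0.00802). The coat adaptor subunit Ap1g1, Dnttip2 and Fbl (fibrillarin) of ribosomal RNA processing, and Galnt2, which starts O-glycosylation, were lower, at -2.82, -3.64, -1.75 and -2.77. Other probes of Ap1g1 gave 0.77 and -3.08. The mRNA export adaptor Alyref had a difference of -1.87 here but 0.12 with quantile normalization and 0.17 in the authors' series table.

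The genes called higher had smaller differences, with a median of 1.42 against -4.60 for those called lower. Sumf1, which activates sulfatases in the endoplasmic reticulum, was detected on 7 of 9 RFP+ arrays and no RFP- array. It ran from -9.10 through -7.71 to -6.29 on RFP+ arrays and from -11.8 through -10.4 to -9.51 on RFP- arrays. The classes did not overlap, and the difference was 2.83 ± 0.37 (limma, adjusted p = 0.000484), at least 2.87-fold in array signal. With every value raised to a common floor of -7.81 it was 0.34 and not called. Sctr (the secretin receptor), Pld5, Trim16, Olfr860 (an olfactory receptor) and Btnl6 had differences of 2.81, 2.42, 2.74, 2.13 and 2.36. Like Sumf1, they were named after their values were seen. They were chosen for being called higher under every scaling and detected on at most 2 RFP- arrays, so neither trait is a result. All of them passed the filter of 4 arrays only with the help of RFP+ arrays. These differences hold for the probes used: a second Sctr probe gave -0.16 and was detected on 3 RFP+ and 7 RFP- arrays. With the floor, 36 of the 48 higher genes and 641 of the 694 lower genes were still called in the same direction. The mean RFP+ levels of Pld5, Trim16, Olfr860 and Btnl6 (-7.91, -8.16, -8.27 and -7.98) lay below the floor, and that of Sctr (-7.14) above it. Over the other processing choices, the differences of these 4 genes fell as low as 0.42, 0.53, 0.06 and 0.31, and that of Sctr to 0.97.

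The largest positive differences among usual symbols were those of Lima1, an actin-binding protein (4.13), Lgr6, a receptor for R-spondins (3.81), and the antiviral membrane protein Ifitm3 (3.76). Lgr6 ran from -8.41 through -5.91 to -3.03 on RFP+ arrays and from -11.8 through -10.0 to -6.36 on RFP- arrays. It was detected on 8 RFP+ and 2 RFP- arrays, and its difference of 3.81 ± 0.78 (limma, adjusted p = 0.00713) was called under every scaling. Lima1, detected on 4 RFP+ arrays and no RFP- array, was at least 4.35-fold higher and Wdr38, with the same detection, at least 2.15-fold. In the 19 refits that left out 1 array each, Ifitm3 was called in 8 and Wdr38 in 9. Ifitm3, the netrin receptor Unc5a (2.96), the NMDA receptor subunit Grin2b (3.33), the orphan receptor Gpr27 (2.98) and Pacsin1 of neuronal endocytosis (2.97) complete this group. Gpr27 was the only other of these 8 genes called under every scaling.

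Among genes detected on all 19 arrays, Fam178b ran from -4.83 through -3.79 to -3.32 on RFP+ arrays and from -6.71 through -6.00 to -5.37 on RFP- arrays. The classes did not overlap, and the difference was 2.01 ± 0.27 (limma, adjusted p = 0.000679). Pnma2 (1.78), whose classes did not overlap either, the oligodendrocyte cytoskeletal gene Ermn (1.83), the testis helicase Ddx25 (1.84) and the GABA receptor subunit Gabra2 (2.30) were called under every scaling. The reproductive homeobox gene Rhox8 (1.70), the adaptor Gab3 (1.65) and the probe named Dcc (1.69) were called with scaling and not without it. The Dcc probe is placed at chr7:68417162-68417221 in mm9, and whether it reads that gene was not tested.

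The RFP difference was next taken separately in GFP- and GFP+ cells, which share no arrays. In GFP- cells, 375 genes were called (1.82%), 22 higher and 353 lower. In GFP+ cells, 74 were called (0.359%), 7 higher and 67 lower. Of the 353 genes lower in GFP- cells, 285 (80.7%) lay below 0 in GFP+ cells, against 44.1% of all genes, with a median of -2.15 against 0.22. Of the 67 lower in GFP+ cells, 64 (95.5%) lay below 0 in GFP- cells, against 57.1%, with a median of -3.90 against -0.29. Over all 20617 genes the differences correlated at r = 0.502, a description across genes that share arrays and brightness within each GFP class. These counts moved with single arrays. In GFP- cells 957 genes were called without GFP-RFP+ replicate 3, 227 without replicate 1 and 246 without replicate 2 of that group. In GFP+ cells 404 were called without GFP+RFP- replicate 4, 47 without GFP+RFP- replicate 5 and 154 without GFP+RFP+ replicate 5.

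A test of whether the RFP difference depends on IL-2 reporter status called 2 genes (0.0097%), and 1013 had an unadjusted p under 0.05. Coq10a, which carries coenzyme Q in mitochondria, had a mean of -1.43 ± 0.97 (SD, n = 5) in GFP-RFP- cells. In the other groups it was at background, with means of -10.5 ± 0.59 (n = 5, GFP-RFP+), -11.0 ± 0.35 (n = 5, GFP+RFP-) and -9.63 ± 1.28 (n = 4, GFP+RFP+). The interaction was 10.5 ± 0.82 (SE; limma, adjusted p = 8.57e-06). Msl3, of a complex that acetylates histone H4, was at background in GFP-RFP+ cells alone, at -10.7 ± 0.61 (SD, n = 5). Its means were -2.21 ± 1.22 (GFP-RFP-, n = 5), -2.16 ± 0.72 (GFP+RFP-, n = 5) and -0.73 ± 0.73 (GFP+RFP+, n = 4), and the interaction was 9.91 ± 0.83 (SE; limma, adjusted p = 1.26e-05). For both genes the RFP difference was thus below 0 in GFP- cells (-9.05 and -8.49). In GFP+ cells it was 1.40 and 1.43, and neither value was called (limma, adjusted p = 0.299 and 0.247). The 1.40 of Coq10a compares groups that were both at background. A change of sign was therefore not shown for either gene. The count of 2 rose to 13 without GFP-RFP+ replicate 3, and to 6 without replicate 4 of GFP+RFP+, or replicate 2 of GFP-RFP-. It was 5 without GFP-RFP- replicate 4, and 4 on leaving out replicate 2 or 4 of GFP+RFP-, replicate 3 of GFP+RFP+ or replicate 1 of GFP-RFP+.

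**Figure D5:**
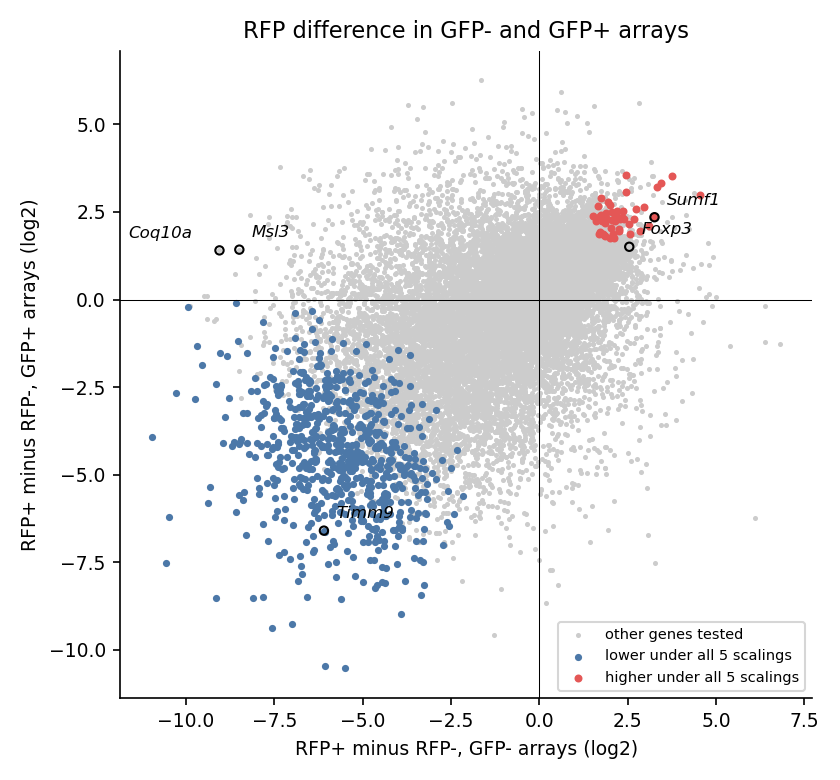
RFP+ minus RFP- difference in log2 signal for 20617 genes, in GFP- cells (horizontal axis) and in GFP+ cells (vertical axis); blue and red points are the 694 and 48 genes called lower and higher under all 5 scalings, with 5 genes circled and named. Timm9 lies below 0 on both axes at -6.10 and -6.60, and Coq10a and Msl3 lie below 0 in GFP- cells only. The differences of Coq10a and Msl3 in GFP+ cells were not called.

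With the percent of probes detected on each array as a further covariate, 89 genes were called, 47 higher and 42 lower, and 56 of them were among the 742. Timm9 was among those called (-6.78, limma adjusted p = 4.83e-06), as was Sumf1 (2.60, limma adjusted p = 0.0411). Over all 20 lists, the genes called in this fit were Ndufs1 and Exosc8 alone, both lower. The 4 interferon, 3 Treg-repressed and 4 effector-memory calls were lost, with list medians of -1.75, -1.46 and -0.42 against 0.29 for all genes. Tnfrsf9 (0.91, limma adjusted p = 0.169), Ifit3 (-4.22, limma adjusted p = 0.296) and Alyref (-1.83, limma adjusted p = 0.128) were not called. Detection itself differed between RFP+ and RFP- arrays, as given above.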

How the data were processed

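The series holds 19 one-colour arrays, with groups taken from the sample titles. Per the labels' protocols, amplification was a global PCR on cDNA made from mRNA, followed by Cy3 labelling and hybridization. The scanner files deposited by the authors hold linear intensity values, made with version 10.7.3.1 of Agilent Feature Extraction (per the submitters' processing notes and the file headers), with background subtracted on each array and no scaling between arrays. The authors also deposited a table of log2 values for the series, used as an alternative. Its column medians are 3.21 to 3.226 and its values follow the scanner's log2 signal with r of 0.949 or more on every array, while its normalization and centring are unknown here.

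Control spots (3671 of 62976) and 3296 spots marked as outliers over all arrays were left out, and 0 spots were saturated. Spots of a probe were averaged, which gave 55681 probes, 27318 named through RefSeq accessions and 28363 by the files. Log2 signal minus the array's 75th percentile over the 6612 probes detected (well above background) on every array was used. Detection on at least 4 arrays was required of a probe (28101 passed), and the brightest probe stood for each of 20617 genes, of which 11739 carried a usual symbol. Array number limits the precision.

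The model was limma 3.58.1 (R 4.3.3, package data.table at version 1.17.8) with RFP and GFP terms and empirical Bayes moderation, and an RFP by GFP term for the interaction. A call is a Benjamini-Hochberg adjusted p under 0.05 over all genes. Array properties and single genes were compared by exact permutation of RFP status within GFP classes. The pipeline was tested on simulated data. Figures were made in Python 3.11.15 (pandas 2.3.3, matplotlib 3.10.9).

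The comparison and its 20 gene lists were chosen with earlier results of these data known. Named genes are Foxp3 and Il2, the 8 called genes per direction with the largest difference, the 8 with the smallest p among genes on all 19 arrays, each with a usual symbol, the 2 list members with the smallest p, and called members of lists with 5 or fewer. Other list members named as not called, and the genes of the interaction, were chosen after their values were seen. A few genes that the rule or lists hold are not reported here. Lists also covered the cell cycle (median -1.19), suppressive molecules (0.27), Foxp3 partner factors (-1.34), the IL-2 receptor (-0.56), TNF receptors (-0.60), cytokines (0.04), T cell identity (-0.39), and markers of B cells (-0.06), class II (-1.49), myeloid (0.02), NK and CD8 (-0.60) and erythroid cells (-1.35).

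Whether the replicate numbers in the titles pair the samples is not stated, and the main model has no replicate term. Over 27 pairs with the same number, deviations from the group means correlated at -0.074 to 0.093. Such values cannot settle the question, since noise within single arrays can hide a pairing.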

Additional observations from a re-analysis of the deposited data

Results flagged for a closer look

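A Dixon test of the highest and lowest value was run on 176 groups, each the RFP+ or the RFP- arrays for a named gene or array property, and 36 held an array far from the others. For normally distributed values chance gives about 1 in 20. Many groups here mix values at background with values above it, so that rate does not apply to them. Of the 36, 24 lay above and 12 below the others, and they fell on several arrays.

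Among RFP+ arrays every such value lay above the rest. Many of these genes were named as lower on RFP+ arrays and were at background on most of them, which leaves little room below. GFP-RFP+ replicate 3, the RFP+ array with the most probes detected, had log2 levels of -1.07 for Cd79b, -1.60 for Wdr38, -4.36 for Tspan14, -0.15 for Ndufs1, 0.25 for Foxp3, 1.38 for Nlrc3 and -2.78 for Ifit2. GFP+RFP+ replicate 3 had levels of -0.53 for Exosc8, -1.0 for Ndufs8 and -2.42 for Sdhb. The others were Tgfb1 at -1.53 on GFP-RFP+ replicate 1, Pecam1 at -3.24 on replicate 2 and Unc5a at -1.60 on replicate 5 of that group. On GFP+RFP+ arrays they were Ifit3 at -7.21 (replicate 1), H2-DMb1 at -7.17 (replicate 4) and Il2 at -5.93 (replicate 5).

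Among RFP- arrays, GFP+RFP- replicate 4 was the dimmest, with a 75th percentile of 12.92, and was high for Btnl6 (-7.35), Sec62 (0.43), Itgam (3.62) and Ddx25 (-1.45). GFP+RFP- replicate 2 was low for Junb (-6.09), Foxo1 (-10.76) and Ap1g1 (-6.26) and high for Il9 (-4.84). GFP+RFP- replicate 3 was low for Hba-a1 (-3.86) and high for Ifitm3 (-6.54). Among GFP-RFP- arrays, replicate 1 was low for Tspan14 (-5.33) and high for Pacsin1 (-4.73). Replicate 2 was low for Slamf6 (-1.63) and Ap4m1 (-11.69) and high for Il22 (-5.43). Replicate 4 was low for Tnfrsf14 (-10.33) and Itgb1 (-4.92), and replicate 5 for Jmjd6 (-6.19) and Lax1 (-6.32).

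The RFP difference depended on the IL-2 reporter for Coq10a, by 10.46 (GFP+ minus GFP-, limma interaction test), and for Msl3, by 9.91.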

How the results depend on the processing

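The count of 2938 called genes was 8008 with normexp, 5453 with quantile normalization, 6551 with the percentile over all probes, 5617 in the series table, 5894 with no scaling, 10493 with no filter and 1720 with detection required on all arrays. It was 196, 156 and 0 within slides 1, 2 and 3 (2009 genes had an unadjusted p under 0.05 in slide 3), 4907 with array weights, 89 with percent detected as covariate, 0 by detection flags and 742 under every scaling. Leaving out each array gave 1959 to 3910. The share called higher, 65.5%, was 0.814% without scaling, 88.0% with the percentile over all probes and 52.8% with percent detected as covariate. In GFP- cells alone, 375 became 4249 (percentile over all probes), 2907 (quantile) and 207 (slide block), and 227 to 957 without each array. In GFP+ cells alone, 74 became 32, 47 and 42, and 47 to 404. The interaction count of 2 ran from 2 to 13. With the replicate number as a block, 2756 genes were called, 145 in GFP- cells, 0 in GFP+ cells and 2 for the interaction. Whether the numbers pair the samples is not known, so neither these counts nor those without the block can be preferred. Within slides 1, 2 and 3 the detection difference was -8.498, -1.809 and -14.028 (exact p = 0.111, 0.889 and 0.167), and the brightness difference -1.302, -1.551 and -0.856 (exact p = 0.0556, 0.111 and 0.167). With 36, 9 and 6 splits, the smallest p this exact test allows is 0.0278, 0.111 and 0.167. Slides 2 and 3 could therefore not reach 0.05. Without each array the detection difference ran from -9.106 to -6.871 and the brightness difference from -1.326 to -1.125. Of 3706 recomputed values for 88 named genes, 3116 kept their direction and call, 500 lost the call, 75 gained it and 15 changed sign. The latter were Alyref (0.12 with quantile normalization, 0.17 in the series table), Itgam (-0.00 with the mean of its probes, -0.07 unscaled), Il22 (-0.84), Tnfrsf9 (-0.28), Tyms (-0.19) and Siglech (-0.67) unscaled. Within slide 2 they were H2-DMb1 (0.84), Hba-a1 (0.37), Hbb-b2 (1.95), Lgals1 (-0.32) and Irf4 (1.24), and with percent detected as covariate Hba-a1 (0.59) and Hbb-b2 (0.29). Their cause was not tested. Scan day, slide or a common floor as alternatives left the main count within 1.5 times. Signal near background limits some calls: 80 of the 1924 higher genes were detected on no RFP- array, and 91 of the 1014 lower genes on no RFP+ array. Such genes, Sumf1, Trim16, Lima1, Wdr38 and Timm9 among them, passed the filter of 4 arrays only through the class where they were higher.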
